A study of Mus musculus with 8 samples.

Results

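Type 2 conventional dendritic cells (cDC2) of mouse spleen had 2261 open chromatin sites with a peak in the shortened list of every cDC2 library. The shortened lists of the type 1 cells (cDC1) examined beside them held none there. These sites were chosen from called ATAC-seq peaks, in which the Tn5 transposase cuts accessible DNA. Each library's list of peak summits was reduced to its highest scores, as many as the shortest deposited list holds, summits of all 8 libraries lying within 250 bp of each other were joined into 112443 sites, and a site was kept when all 4 cDC2 libraries and no cDC1 library had a summit in it and no cDC1 summit lay within 1 kb. The 2261 cDC2-only sites were 2.01% of all sites and 5.56% of the 40661 sites found in all 4 cDC2 libraries. The opposite choice gave 4355 cDC1-only sites (3.87% of all sites), and 29645 sites were found in all 8 libraries. The difference between the subsets chose these sites, so values that set cDC2 against cDC1 at them are descriptions and carry no test.

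The KO libraries came from mice labelled HDAC1 Mx1-Cre and the WT libraries from mice labelled HDAC1 floxed, and all mice of both genotypes had received poly I:C 2 weeks before their cells were sorted. There were 2 libraries each of KO cDC2, WT cDC2, KO cDC1 and WT cDC1. The cells were lineage-negative, CD11c+, MHCII+ and CD64-, with cDC2 taken as XCR1- CD11b+ and cDC1 as XCR1+ CD11b-. Mx1-Cre is switched on by interferon and acts in many tissues, not in dendritic cells alone. The age of the mice is not given in the sources used here, and nothing states that the libraries of a group came from separate animals, so the spread between them may be technical.

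The gates could be compared with the summits near marker genes. Cd8a, carried by splenic cDC1, had 0 and 1 summits in KO cDC2, 0 and 0 in WT cDC2, 5 and 6 in KO cDC1, and 6 and 7 in WT cDC1. Sirpa, a surface receptor of cDC2, had 7 and 8 summits in KO cDC2, 7 and 5 in WT cDC2, 5 and 5 in KO cDC1, and 4 and 3 in WT cDC1. Cadm1 and Irf8, of the cDC1 list, had 11 to 15 and 7 to 11 summits in cDC2, and 23 to 27 and 14 to 16 in cDC1. Clec4a4, of the cDC2 list, had 2 to 3 in cDC2 and 0 to 1 in cDC1. Other markers did not separate the subsets in this way, among them Irf4 (4 to 7 in cDC2, 4 to 5 in cDC1) and Cd4 (2 to 3 and 2). Clec9a, a receptor of cDC1, had 2 summits in each cDC2 library and 1, 2, 1 and 1 in the cDC1 libraries, and Itgam, which encodes the CD11b of the gate, had 7 to 10 in cDC2 and 7 to 10 in cDC1. Xcr1 was the nearest gene of 0 summits in any library. Hdac1 had 1 or 2 summits in every library, which says nothing of the deletion. The deposited lists held 69025 and 78296 summits in KO cDC2, 66609 in WT cDC2 replicate 1, 74963 and 96031 in KO cDC1, and 76022 and 77585 in WT cDC1, and replicate 2 of WT cDC2 had the shortest list. That shortest list was kept whole, down to a score of 1.31. The kept lists of the other libraries ended at scores of 3.56 to 4.92 in cDC2 and 4.53 to 7.21 in cDC1. A cDC1 summit left out could thus score above a cDC2 summit that was kept. Read depth is unknown, since the files hold no counts.

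Conventional dendritic cells take up antigen and present it to T cells. cDC2 depend on transcription factors such as IRF4 and ZEB2 and, in spleen, on Notch2 signalling, and are known for priming CD4+ T cells, whereas cDC1 depend on IRF8 and BATF3 and cross-present antigen to CD8+ T cells. Open sites away from gene starts are often enhancers, and in many tissues they differ between cell types more than promoters do. HDAC1 removes acetyl groups from histones as part of repressor complexes.

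Few cDC2-only sites lay at a gene start. With RefSeq promoter windows of the GRCm38.p6 assembly, which run from 250 bp before to 50 bp after a transcript start, 46 of the 2261 sites had a summit in 52 windows. The windows below are shown because they hold the cDC2-only promoter sites with the best ranks: the 4 sequences belong to Map7d3, a microtubule-associated protein (chrX:56822276-56822575, minus strand), Cacnb4, a subunit of voltage-gated calcium channels (chr2:52558562-52558861, minus strand), Mmp8, the neutrophil collagenase (chr9:7558179-7558478, plus strand), and Zfp947, a zinc finger gene (chr17:22165928-22166227, minus strand). The next in rank, at the start of Dscam, a neuronal adhesion molecule, is not printed because the summit of only 1 library lay in its window. The sequences are printed 5′ to 3′ along the gene, and capitals mark matches, on either strand, to the motifs described beneath.
Map7d3: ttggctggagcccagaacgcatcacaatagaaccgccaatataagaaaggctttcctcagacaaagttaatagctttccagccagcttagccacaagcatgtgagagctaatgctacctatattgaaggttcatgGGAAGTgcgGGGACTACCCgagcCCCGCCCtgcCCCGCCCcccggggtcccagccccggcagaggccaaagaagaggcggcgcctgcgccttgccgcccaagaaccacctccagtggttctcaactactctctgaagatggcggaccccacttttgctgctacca
Cacnb4: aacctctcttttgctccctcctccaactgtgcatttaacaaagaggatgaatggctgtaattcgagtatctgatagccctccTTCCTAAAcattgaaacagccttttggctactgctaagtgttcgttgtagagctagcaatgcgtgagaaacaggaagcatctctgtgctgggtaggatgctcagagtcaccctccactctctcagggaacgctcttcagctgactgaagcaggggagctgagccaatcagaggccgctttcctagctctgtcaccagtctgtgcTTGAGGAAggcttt
Mmp8: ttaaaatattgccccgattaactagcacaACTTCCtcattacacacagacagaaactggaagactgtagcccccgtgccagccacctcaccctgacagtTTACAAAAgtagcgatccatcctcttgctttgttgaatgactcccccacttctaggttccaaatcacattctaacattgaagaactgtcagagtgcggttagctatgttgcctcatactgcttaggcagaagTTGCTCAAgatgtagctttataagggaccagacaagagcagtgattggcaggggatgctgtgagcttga
Zfp947: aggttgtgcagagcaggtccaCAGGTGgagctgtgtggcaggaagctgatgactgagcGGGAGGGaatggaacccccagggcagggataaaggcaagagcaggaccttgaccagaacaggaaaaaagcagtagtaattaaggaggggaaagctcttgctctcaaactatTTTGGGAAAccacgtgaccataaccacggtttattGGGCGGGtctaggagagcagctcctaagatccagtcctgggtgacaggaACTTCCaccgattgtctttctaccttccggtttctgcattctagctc

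In these windows the median cDC2 summit lay 34, 48, 54 and 40 bp before the transcript start, in the order printed. Map7d3 had ranks of 20790 and 22406 in KO cDC2 and of 19823 and 22462 in WT cDC2, where rank 1 is the highest score of a library. The genotypes overlapped, and the 4 ranks lay close together. Mmp8 had ranks of 30843 and 11661 in KO cDC2 and of 23100 and 17683 in WT cDC2. Weaker Mmp8 summits, ranked below the end of the shortened lists, lay within 250 bp in all 4 cDC1 libraries, so this promoter was not empty in cDC1. The Mmp8 window held 1 match to the ETS core GGAAGT and 2 to the C/EBP pattern TTNCNNAA, and that of Cacnb4 held 2 C/EBP matches only.

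Tmem132c (chr5:127241576-127241875, plus strand), which had more cDC2-only sites than any other gene, and Mmp12, the macrophage elastase (chr9:7347124-7347423, plus strand), were picked after their values were seen. They are shown because they differ in base composition, with 70.3% G or C and 29 CpG in the Tmem132c window and 40.7% and 3 CpG in that of Mmp12.
Tmem132c: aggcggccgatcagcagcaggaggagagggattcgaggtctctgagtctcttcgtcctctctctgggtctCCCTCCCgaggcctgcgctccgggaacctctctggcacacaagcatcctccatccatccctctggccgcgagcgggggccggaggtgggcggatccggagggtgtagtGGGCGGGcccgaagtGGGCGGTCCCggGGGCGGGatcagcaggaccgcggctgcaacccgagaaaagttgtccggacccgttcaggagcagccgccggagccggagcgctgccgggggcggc
Mmp12: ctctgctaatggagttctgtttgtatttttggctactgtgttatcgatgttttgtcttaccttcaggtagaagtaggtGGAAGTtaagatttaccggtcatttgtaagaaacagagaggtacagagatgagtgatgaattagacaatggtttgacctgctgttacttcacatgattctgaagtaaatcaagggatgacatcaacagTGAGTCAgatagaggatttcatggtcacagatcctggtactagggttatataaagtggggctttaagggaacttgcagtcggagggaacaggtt

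The Tmem132c window held 3 matches to the KLF/SP pattern GGGNGGG and 1 to the NF-kB pattern, GGGA and CC with any 4 bases between. That of Mmp12 held 1 ETS core and 1 match to the AP-1 pattern TGANTCA. The cDC2-only site at the Mmp12 start had ranks of 27507 and 58133 in KO cDC2 and of 28651 and 39125 in WT cDC2, and no weaker cDC1 summit within 250 bp. Within the windows, 39 of the 46 promoter sites had their median summit within 100 bp of a start. Over the 52 windows the median distance was 52 bp, and 40 windows had their median summit at or before the start. The windows reach 250 bp before a start and only 50 bp after it, and only summits inside them were counted. Closeness to the start and a place before it are thus partly set by the window.

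Some of the windows of cDC2-only sites overlap, as at Elavl2 and Pram1, so a stretch of sequence can be counted more than once. The 10 motifs were searched on both strands of the 52 windows, with overlapping matches of different motifs allowed. GGAAGT was in 42.3% of them, against 30.6% of the 36 windows of cDC1-only sites, 32.1% of the 8976 windows of sites found in all 8 libraries and 23.8% of all 32851 windows. The KLF/SP pattern was in 55.8% of the cDC2-only windows, 30.6% of the cDC1-only windows, 70.5% of the windows of sites in all 8 libraries and 48.1% of all windows. The composite ETS-IRF pattern, GGAA and GAAA with any 2 bases between, was in 1.92%, 13.9%, 2.34% and 2.72% of the same window sets, and the IRF pattern, GAAA and GAAA with the same gap, in 3.85%, 11.1%, 2.77% and 3.44%. The cDC2-only windows with these IRF patterns numbered 1 and 2, and the cDC1-only windows 5 and 4. Both shares were thus lower in the cDC2-only than in the cDC1-only windows, but in the cDC2-only windows they lay near those of all windows. TGANTCA was in 11.5%, 19.4%, 4.34% and 7.81%, and TTNCNNAA in 46.2%, 47.2%, 28.4% and 40.7%. For the RUNX pattern TGTGGT the shares were 21.2%, 19.4%, 11.9% and 16.8%, and for the ZEB E-box CAGGTG 28.8%, 19.4%, 17.1% and 20.2%. GTGGGAA, bound by the Notch partner RBPJ, was in 3.85%, 5.56%, 5.67% and 6.38%, and the NF-kB pattern in 11.5%, 27.8%, 27.7% and 20.7%. With so few windows in the cDC2-only and cDC1-only sets these are shares of letters, and a match is not a bound site. The windows also differed in base composition, with 55.0% G or C in the cDC2-only windows, 51.5% in the cDC1-only windows, 62.3% in those of sites in all 8 libraries and 52.7% in all.

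The cDC2-only sites were mostly away from gene starts, as were the cDC1-only sites. Gene spans of 21887 protein-coding genes placed 95 sites (4.2%, Wilson 95% interval 3.45 to 5.11) within 1 kb of a gene end, 1181 (52.2%) inside a gene and 985 (43.6%) outside. Of the cDC1-only sites 3.51% lay at a gene end, 55.5% inside and 41.0% outside, and of the sites found in all 8 libraries 31.1%, 38.1% and 30.8%. The median distance to the nearest listed transcript start was 23522 bp for 2174 cDC2-only sites, 24384 bp for 4184 cDC1-only sites and 10003 bp for 28732 sites in all 8 libraries. A start within 1 kb was found for 3.96% of cDC2-only sites, 2.34% of cDC1-only sites and 30.8% of sites in all 8 libraries. Chromosome 18 has no listed starts and is left out of these distances. Of the cDC2-only sites 10.7% lay inside lncRNA genes, close to the 10.6% of sites in all 8 libraries.

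**Figure D1:**
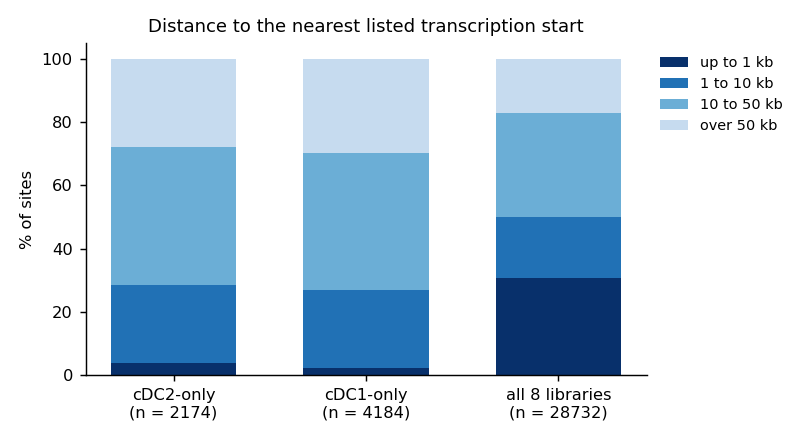
Stacked bars of the share of sites (percent, y axis) in 4 classes of distance to the nearest listed transcript start, for cDC2-only sites, cDC1-only sites and sites found in all 8 libraries (x axis, with the number of sites). Within 1 kb lay 3.96% of cDC2-only sites, 2.34% of cDC1-only sites and 30.8% of sites in all 8 libraries.

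The 2261 sites lay on every autosome and on the X chromosome, and 0 of the 3 sites found in all 4 cDC2 libraries on the Y chromosome was among them. On the autosomes and X they made up between 3.39% of the sites found in all 4 cDC2 libraries on chromosome 11 (83 sites) and 7.33% on the X chromosome (69 sites). The 4 cDC2 summits of a cDC2-only site lay a median of 91 bp apart, against 71 bp for the cDC2 summits of sites in all 8 libraries. They were within 100 bp in 56.9% of cDC2-only sites and 69.6% of sites in all 8 libraries. The nearest cDC1 summit was a median of 6395 bp away.

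The cDC2-only sites ranked low within their libraries. Their median rank was 37577 and 37577 in KO cDC2 and 37194 and 36390 in WT cDC2. The other 38400 sites found in all 4 cDC2 libraries had medians of 20114 and 20188 in KO cDC2 and 20202 and 20319 in WT cDC2. The best-ranked 25% of the list held 4.16% and 4.20% of cDC2-only sites in KO cDC2 and 4.73% and 5.93% in WT cDC2, while it held 38.5% to 38.7% of the other sites. The worst-ranked 25% held 27.9% and 26.9% in KO cDC2 and 27.6% and 24.5% in WT cDC2, against 7.62% to 8.31% of the others. All 4 libraries showed the same shift, and absence of cDC1 summits was part of the choice.

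**Figure D2:**
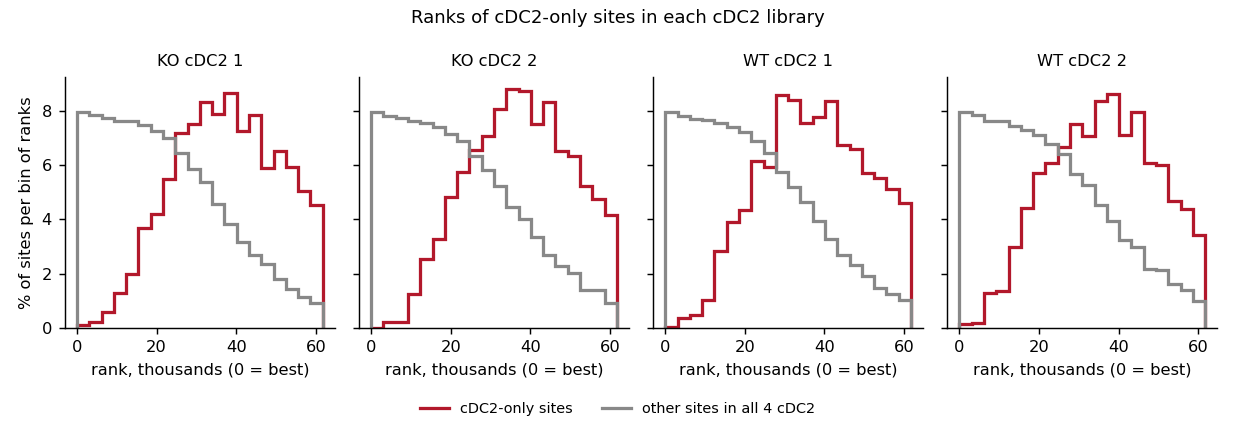
Share of sites per bin of ranks (percent, y axis) against rank within the library divided by 1000 (x axis, best rank at the left), in a panel for each cDC2 library, for cDC2-only sites and for the other sites found in all 4 cDC2 libraries. The cDC2-only sites lie to the right in every panel, with median ranks between 36390 and 37577 against 20114 to 20319.

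Some sites were near the limits of the choice. The members closest to a cDC1 summit were 1003, 1004 and 1006 bp away, and the closest sites left out were 999, 994 and 994 bp away. In all, 458 sites had met every other condition but had a cDC1 summit within 1 kb. A further 2431 sites had summits in 3 of the 4 cDC2 libraries and no cDC1 summit within 1 kb, and for 614 of them the fourth library had a summit somewhere below the list end, the best at rank 61744, while the worst ranks of members were 61733, 61729 and 61718.

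Being found only in cDC2 often meant a weaker summit in cDC1, not the absence of any. Of the 2261 sites 1211 (53.6%) had a cDC1 summit within 250 bp that ranked below the list end, and 976 (43.2%) had no cDC1 summit of any rank within 1 kb. Such weaker summits lay at 296 (13.1%) and 918 (40.6%) of the sites in KO cDC1 and at 284 (12.6%) and 359 (15.9%) in WT cDC1. Replicate 2 of KO cDC1, which has the longest deposited list, stood apart, and 489 sites had a weaker summit in it alone. Only 21 sites had one in all 4 cDC1 libraries. In bulk cells, a site open in fewer cells and a site less open in every cell cannot be told apart. The cDC1 lists held 77653 summits below the list end and the cDC2 lists 28719, and 14.8% of cDC1-only sites had a weaker cDC2 summit.

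The difference between subsets was also looked up in libraries that had not chosen the sites, an alternative added after the data had been seen. When sites were chosen in the WT libraries alone, 6356 sites had summits in both WT cDC2 libraries and no WT cDC1 summit within 1 kb. In the KO libraries, 75.7% and 73.0% of them had a summit within 250 bp in cDC2 and 20.9% and 23.5% in cDC1. For the 48063 sites found in both WT cDC2 libraries, whatever cDC1 showed, the KO shares were 90.5% and 88.9% in cDC2 and 77.8% and 78.3% in cDC1. When sites were chosen in KO alone, 5954 were found, with a summit in 70.2% and 68.3% of them in WT cDC2 and in 15.2% and 16.7% in WT cDC1. For the 49136 sites found in both KO cDC2 libraries, the WT shares were 89.2% and 87.6% in cDC2 and 76.3% and 76.8% in cDC1. Within each set, both cDC2 shares were above both cDC1 shares in the genotype not used, also for the sites chosen whatever cDC1 showed. These sets are not the 2261 cDC2-only sites, so the shares are descriptions and no test of those sites. Both KO cDC2 and neither KO cDC1 library held 2298 (36.2%) of the WT-chosen sites, and both WT cDC2 and neither WT cDC1 library held 2328 (39.1%) of the KO-chosen sites.

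The 10 sites with the best worst rank over the 4 cDC2 libraries lay inside or outside genes and none at a gene end. The second cDC2-only site of Dpp10, an auxiliary subunit of potassium channels (chr1:123752082-123752154, inside the gene), had ranks of 1931 and 3472 in KO cDC2 and of 1204 and 767 in WT cDC2. It had no cDC1 summit of any kept rank for 135456 bp and no weaker one within 250 bp. A site 12860 bp from Tmem131l (chr3:83885332-83885358) had ranks of 5569 and 4506 in KO cDC2 and of 4369 and 3926 in WT cDC2. The site at Tgfbr3, a TGF-beta co-receptor (chr5:107059635-107059695, 46902 bp outside the gene), had ranks of 6754 and 4628 in KO cDC2 and of 3570 and 6883 in WT cDC2. These genotypes overlapped at Tgfbr3 and did not at Dpp10 and Tmem131l, where both WT libraries ranked higher.

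The site inside Tnik, a kinase of Wnt signalling (chr3:28558491-28558509), had ranks of 2069 and 6261 in KO cDC2 and of 6583 and 8552 in WT cDC2. That inside Ptpre, a tyrosine phosphatase (chr7:135588756-135588821), had ranks of 6346 and 7343 in KO cDC2 and of 9648 and 6470 in WT cDC2. A site 157851 bp from Kit, the stem cell factor receptor (chr5:75417132-75417140), had ranks of 7053 and 11549 in KO cDC2 and of 3423 and 2310 in WT cDC2. The genotypes overlapped at Ptpre, both KO libraries ranked higher at Tnik, and both WT libraries ranked higher near Kit. The others were in Gpc6, a heparan sulfate proteoglycan, in Suclg2, a subunit of succinyl-CoA ligase, in Macrod2, which removes ADP-ribose from proteins, and 75279 bp from Papss1, which makes the sulfate donor of the cell. While 53.6% of all cDC2-only sites had a weaker cDC1 summit within 250 bp, 6 of these 10 sites had none. None of the KO minus WT differences among them passed the test described further on.

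Each site was assigned to the nearest protein-coding gene within 50 kb, which does not show that it acts on that gene. The 1894 sites with such a gene fell to 1577 of 21887 genes (7.21%), of which 1328 had 1 cDC2-only site, 200 had 2 and 49 had 3 or more. A cDC1-only site was found at 2692 genes (12.3%), and 411 genes had both kinds, which is 26.1% of genes with a cDC2-only site and 15.3% of genes with a cDC1-only site. Genes with a cDC2-only site had a median of 10 sites of any kind, against 4 in all genes with a site, and a median length of 58.7 kb, against 17.2 kb in all genes.

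Tmem132c had 7 cDC2-only sites among 17 sites of any kind. Scn11a, a voltage-gated sodium channel, had 6 among 13, and St3gal1, which adds sialic acid to O-glycans, had 6 among 28. Tmem132c and Scn11a had 0 sites found in all 8 libraries. The 7 Tmem132c sites had ranks between 16870 and 58308 in KO cDC2 and between 17633 and 61649 in WT cDC2, with the strongest in the gene body. Dpp10 had 5 cDC2-only sites among 34, and Ank, a membrane protein that exports pyrophosphate, 5 among 26. Dgkg, a diacylglycerol kinase, had 4 among 24, Zfp800 4 among 23 and Tmem135 4 among 26. Dock1, which activates Rac during engulfment of dying cells, had 4 among 23, and Ror1, a receptor for Wnt5a, 4 among 33. Some of these genes also had cDC1-only sites, with 3 each at Zfp800 and Tmem135 and 1 each at Tmem132c, Ank and Dgkg. Scn11a, St3gal1, Dpp10, Dock1 and Ror1 had 0. Of the 49 cDC2-only sites at these 10 genes 27 had no weaker cDC1 summit within 250 bp. Over all cDC2-only sites 53.6% had one.

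**Figure D3:**
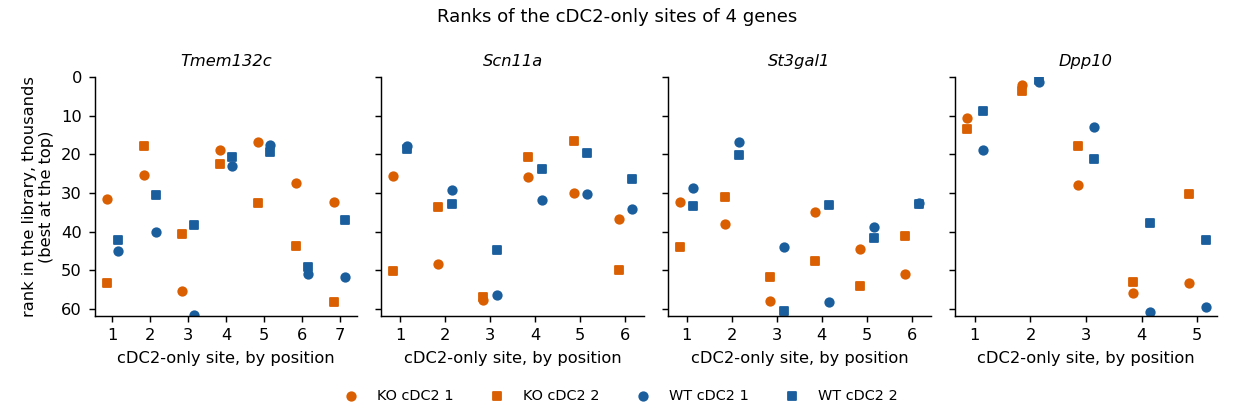
Ranks divided by 1000 (y axis, best rank at the top) of each cDC2-only site (x axis, in order of position) of Tmem132c, Scn11a, St3gal1 and Dpp10, with a point for each KO and WT cDC2 library. Sites of 1 gene differ widely, as at Tmem132c, where they run from 16870 to 61649.

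Neighbouring cDC2-only sites within 50 kb of each other formed 257 groups with 574 sites (25.4%). Of the 4355 cDC1-only sites 37.1% were in groups of their own kind, but a larger set has more neighbours within a given distance. The group with most cDC2-only sites held the 6 at St3gal1 (chr15:67068080-67145571). Their ranks lay between 31006 and 57880 in KO cDC2 and between 16772 and 60582 in WT cDC2. There were 4 sites near Fem1c and Ticam2, the adaptor that carries TLR4 signals to TRIF (chr18:46533795-46573033), and 4 near Elk3, an ETS factor, and Lta4h, which makes leukotriene B4 (chr10:93326030-93423279). A further 4 lay in a span whose nearest genes, Enc1 and Arhgef28, were at least 256541 bp away (chr13:97509542-97578890), and 4 at Scn11a (chr9:119804345-119858942). There were 9 groups of 4 or more sites, and those of equal size named here are the ones with the best-ranked site. Each of these 5 spans held 0 cDC1-only sites among its 8 to 21 sites of any kind. As cDC1-only sites were 3.87% of all sites, few would be met in spans of this size. Over all sites, a cDC1-only site was within 50 kb of 19.9% of cDC2-only sites and of 27.9% of sites found in all 8 libraries.

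Genes of cDC2 identity held cDC2-only sites at 8 of 25 (32.0%), against 7.21% of all genes. The sites made up 3.98% of the list's 226 sites, against 1.91% of all sites with a gene. A cDC1-only site was found at 6 of the 25 genes (24.0%), against 12.3% of all genes. Both kinds were thus found at a higher share of these genes than of all genes. As a share of the list's sites, cDC1-only sites were 2.65%, against 3.68% of all sites with a gene. The gene lists were chosen with earlier results in view, and long or site-rich genes have more chances to hold a member, so counts are given without a test. Dtx1, a Notch target and regulator (chr5:120697033-120697145, inside the gene), had the best of these sites, with ranks of 16016 and 10691 in KO cDC2 and of 5646 and 13837 in WT cDC2. The Sirpa site (chr2:129592774-129592910, inside) had ranks of 26672 and 17721 in KO cDC2 and of 28439 and 43275 in WT cDC2. The genotypes overlapped at Dtx1, while both KO libraries ranked above both WT libraries at Sirpa, where the test was not passed (adjusted p = 0.736, limma). Clec4a4, a C-type lectin of cDC2 (chr6:123001298-123001416, inside), had ranks of 47345 and 34706 in KO cDC2 and of 31972 and 30261 in WT cDC2. The others were Zeb2, Notch2 with 2 sites, the fractalkine receptor gene Cx3cr1, Gpr183, an oxysterol receptor that positions cDC2 in the spleen, and Csf1r, the receptor for macrophage colony-stimulating factor. Their ranks lay between 31751 and 58088.

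Among 28 genes of the Notch pathway 7 held a cDC2-only site and 10 (35.7%) a cDC1-only site, against 7.21% and 12.3% of all genes. The receptors Notch1 and Notch2, the ligand Jag1, the coactivator Maml1 with 2 sites, Dtx1, Dtx4 with 2 sites, and the target Hes1 were the 7. The Notch1 site (chr2:26540557-26540671, 36792 bp outside the gene) had ranks of 17940 and 22553 in KO cDC2 and of 37033 and 25576 in WT cDC2. The first Dtx4 site (chr19:12472109-12472173, inside) had ranks of 52393 and 37321 in KO cDC2 and of 14314 and 25096 in WT cDC2. At Notch1 both KO libraries ranked higher and at Dtx4 both WT libraries did, and neither difference passed (adjusted p = 0.773 and 0.4, limma). Among the 326 sites of the Notch list 3.07% were cDC2-only and 3.37% cDC1-only, against 1.91% and 3.68% of all sites with a gene.

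Of 40 transcription factors of dendritic cells 9 (22.5%) held a cDC2-only site and 16 (40.0%) a cDC1-only site, against 7.21% and 12.3% of all genes. The cDC2-only sites were 1.81% of the list's 718 sites, near the 1.91% of all sites with a gene. The 9 were Batf, Zeb2, Nfkb1 with 2 sites, Tcf4, Cebpb, Nfil3 with 2, Runx1, Etv6 with 3 and Egr2. Nfil3, required for cDC1 development, is also on the cDC1 list. Its second site (chr13:53001548-53001644, 18718 bp outside the gene) had ranks of 19053 and 32848 in KO cDC2 and of 20760 and 14813 in WT cDC2. Egr2, a zinc finger factor induced by activation (chr10:67489975-67490072, 44446 bp outside), had ranks of 23143 and 14154 in KO cDC2 and of 19078 and 42529 in WT cDC2. The genotypes overlapped at both.

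The cDC1 identity list also held cDC2-only sites, at 5 of 24 genes (20.8%), but cDC1-only sites at 12 (50.0%), against 7.21% and 12.3% of all genes. The 5 were Nfil3, Wdfy4, which is needed for cross-presentation, Ly75, the endocytic receptor DEC-205, Cd24a and Rab7b. As a share of the list's 292 sites, cDC2-only sites were 2.05% and cDC1-only sites 9.25%, against 1.91% and 3.68% of all sites with a gene. A gene of this list could thus hold sites of both kinds: Wdfy4 had 1 cDC2-only and 3 cDC1-only sites.

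**Figure D4:**
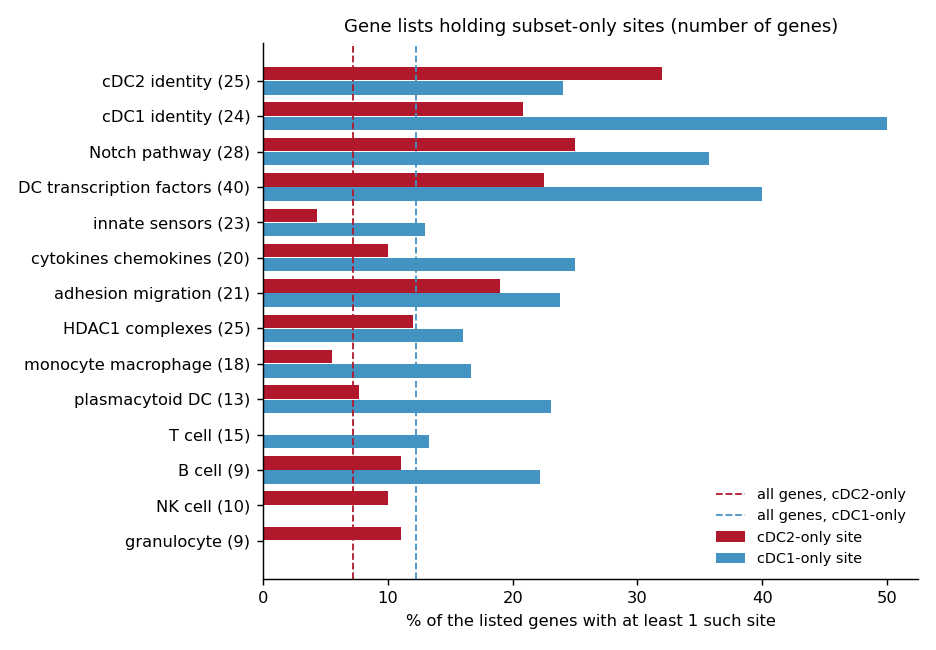
Share of the genes of each list (percent, x axis) with a cDC2-only site and with a cDC1-only site, and dashed lines for all genes (7.21% and 12.3%). Numbers beside the names are list sizes. The cDC2 identity list had 32.0% and 24.0%, the cDC1 identity list 20.8% and 50.0%.

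The lists of effector genes and of HDAC1 complexes held cDC2-only sites at 1 to 4 genes each, to be read beside 7.21% of all genes and, for shares of sites, 1.91%. Cytokine and chemokine genes held cDC2-only sites at 2 of 20, with 3 at Il12a, the p35 subunit of IL-12, and 1 at Tnf, together 3.42% of the list's 117 sites. The Il12a site inside the gene (chr3:68693543-68693848) had ranks of 42260 and 39017 in KO cDC2 and of 24153 and 44012 in WT cDC2, and none of the 12 sites at Il12a was a cDC1-only site. Innate sensors had 1 of 23 (4.35%), at Tlr8, an endosomal receptor for RNA. Adhesion and migration genes had 4 of 21 (19.0%), among them Cd2 with 2 sites, the sphingosine receptor S1pr1 and the follicle-homing receptor Cxcr5. The first Cd2 site (chr3:101293958-101293985, 6032 bp outside) had ranks of 25632 and 19503 in KO cDC2 and of 31320 and 24369 in WT cDC2. Genes of HDAC1 complexes had 3 of 25 (12.0%), at Mta1, Mta3 and Gatad2a, which belong to the NuRD complex. As shares of the lists' sites, cDC2-only sites were 0.581% for innate sensors, 2.38% for adhesion and migration genes and 1.72% for HDAC1 complexes. A cDC1-only site was found at 5 cytokine and chemokine genes, 3 innate sensors, 5 adhesion and migration genes and 4 genes of HDAC1 complexes. Each of these lists thus had more genes with a cDC1-only site than with a cDC2-only site, as did all genes (12.3% and 7.21%). At the 35 genes of these 8 lists with a cDC2-only site, 21 of the 45 sites had no weaker cDC1 summit within 250 bp. Over all cDC2-only sites 53.6% had one.

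Lists of other cell types held cDC2-only sites at 0 to 1 genes each, beside 7.21% of all genes. Monocyte and macrophage genes had 1 of 18 (5.56%, Csf1r), plasmacytoid dendritic cell genes 1 of 13 (7.69%, Tcf4), T cell genes 0 of 15, B cell genes 1 of 9 (11.1%, Pax5), NK cell genes 1 of 10 (Klre1) and granulocyte genes 1 of 9 (11.1%, Mmp8). With so few genes a single one brings a list to about the share of all genes. The 2 Mmp8 sites were 6.25% of the 32 sites of the granulocyte list, against 1.91% of all sites with a gene. The granulocyte list had 18 and 20 summits in KO cDC2, 18 and 18 in WT cDC2, 16 and 16 in KO cDC1 and 13 and 13 in WT cDC1. Of its 9 genes, S100a8, Mpo and Elane had 0 summits in any cDC2 library, and the other genes held all the cDC2 summits counted. A count of 0 says little by itself, since Xcr1 of the gate had 0 in every cDC1 library too. The part of other cells in the Mmp8 sites was not tested.

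The genotype contrast did not choose the sites and was tested in cDC2, with limma on log2 scores brought to the same distribution in each library, over all 40661 sites found in all 4 cDC2 libraries. A site tested had to rank within the list in both genotypes, so a site gained or lost altogether in KO cDC2 could not be among those tested, and the counts cover differences in score between sites found in both. Of all sites 2 were higher in KO (0.00492%) and 1 lower (0.00246%) at a Benjamini-Hochberg adjusted p under 0.05, and of the 2261 cDC2-only sites 1 was higher and 1 lower. At an unadjusted p under 0.05 there were 184 cDC2-only sites (8.14%), close to the 7.68% of all sites. Of these 184 sites 67 were higher and 117 lower in KO. Over all sites 1438 were higher and 1684 lower at the same threshold, and the balance of directions was not tested. The median log2 difference was -0.06 over cDC2-only sites and 0.003 over all sites, and its sign turned when scores were centred on the library median (0.008) or when replicate 2 of WT cDC2 was left out (0.006).

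The site that was higher in KO (chr12:42181725-42181843) lay 226196 bp from Immp2l, a mitochondrial inner membrane peptidase. It had ranks of 13911 and 10227 in KO cDC2 and of 55606 and 58092 in WT cDC2. Both KO libraries ranked far above both WT libraries, and the difference was 2.68 on the log2 scale, with an SE of 0.493 (adjusted p = 0.00649, limma). The site that was lower in KO lay inside Phc1, a subunit of Polycomb repressive complex 1 (chr6:122333345-122333403), with ranks of 17819 and 47090 in KO cDC2 and of 6145 and 7571 in WT cDC2. The groups did not overlap, but the KO libraries were far apart, and the difference was -1.90 on the log2 scale, with an SE of 0.388 (adjusted p = 0.0477, limma).

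Both calls depended on the treatment of the scores and on single libraries. Without a variance trend the adjusted p was 0.686 at both (limma). With a normal score of the rank it was 0.064 at the Immp2l site and 0.139 at Phc1. The Immp2l site also lost its call without replicate 2 of KO cDC2 (adjusted p = 0.301, limma), replicate 1 of WT cDC2 (0.267) or replicate 2 of WT cDC2 (0.956). Phc1 lost its call without the same libraries (0.726, 0.734 and 0.956), and with all deposited summits (0.101) or a chaining distance of 500 bp (0.0867). The directions did not change in any of these fits. With a library left out, the log2 difference ran from 2.54 to 2.84 at the Immp2l site and from -2.72 to -1.06 at Phc1, where -2.72 came without replicate 1 and -1.06 without replicate 2 of KO cDC2.

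Another 3 sites, picked after their values were seen because their adjusted p was under 0.1, did not pass. A site 10090 bp from Cd300e, an activating receptor of myeloid cells (chr11:115076734-115076799), had ranks of 61733 and 60103 in KO cDC2 and of 16443 and 27786 in WT cDC2 (log2 difference -2.23, adjusted p = 0.0614, limma). A site 9752 bp from Ly9, a SLAM family receptor (chr1:171617082-171617242), had ranks of 18006 and 15853 in KO cDC2 and of 58085 and 51514 in WT cDC2 (2.13, adjusted p = 0.0921, limma). The fourth Tmem135 site (chr7:89253463-89253483) had ranks of 28660 and 34276 in KO cDC2 and of 8579 and 9884 in WT cDC2 (-1.68, adjusted p = 0.0933, limma). At all 3 the genotypes did not overlap, as sites picked for a small p tend to do.

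**Figure D5:**
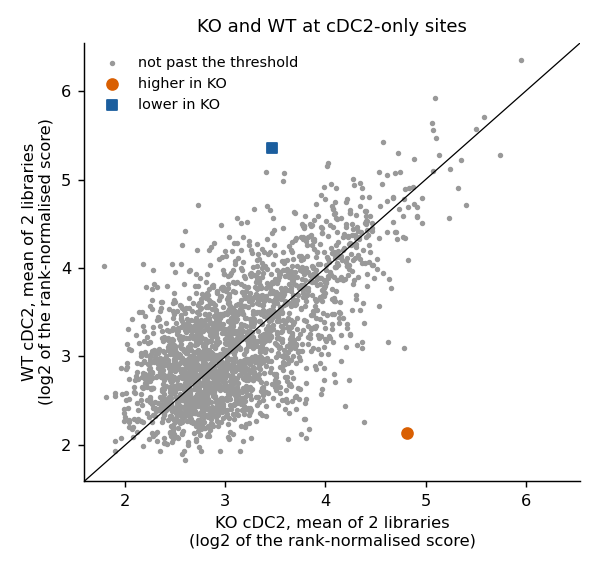
Mean log2 rank-normalised score of the 2 WT cDC2 libraries (y axis) against that of the 2 KO cDC2 libraries (x axis), with a point for each of the 2261 cDC2-only sites, and the line of equal values. The large circle is the site far from Immp2l, 2.68 higher in KO, and the large square the site in Phc1, with a difference of -1.90.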

How the data were processed

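Each of the 8 libraries had a deposited list of peak summits with a score. Bowtie2, SAMtools, MACS2 and MultiQC and the mm10 (GRCm38) build are named per the submitters' processing notes; versions and settings are not given in the sources used here. The deposited score is a −log10 p-type value from the authors' peak caller, it rises with depth, and it was used here only for ranks or after bringing the libraries to 1 distribution. Summits are listed per library in the deposited files. Read depth is not in the files used here. Intervals on shares of sites are Wilson 95% intervals and treat sites as independent.

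Genes were the protein-coding spans of the GRCm38.p6 RefSeq table, without strand or exons, so introns and exons were not separated. Transcript starts and promoter sequences came from RefSeq windows of the same assembly. KO and WT were compared with limma 3.58.1 in R 4.3.3 (trended variance, no block, Benjamini-Hochberg threshold 0.05). On simulated data the fit made no call where nothing was changed, and among calls with changes added more were unchanged sites than the threshold allows. Named sites were the best 10 by worst rank, the 10 genes with most sites, the 5 groups with most sites (ties by the best worst rank), listed genes, sites past the KO threshold and promoter sites with the best ranks. A listed gene is not reported here by name. The sites and gene lists were chosen with earlier results of these data known. Alternatives covered list length, chaining distance, distance to cDC1 summits, gene-end window, score scaling, variance trend and leaving out each library.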

Additional observations from a re-analysis of the deposited data

Results flagged for a closer look

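Replicate 2 of KO cDC1 stood apart from the other cDC1 libraries in 2 measures. Its deposited list had 96031 summits, against 74963 in the other KO cDC1 library and 76022 and 77585 in WT cDC1. A weaker summit of this library, below the end of the shortened lists, lay within 250 bp of 40.6% of cDC2-only sites, against 13.1% in the other KO cDC1 library and 12.6% and 15.9% in WT cDC1. About 1 in 20 groups of 4 would be marked by chance, and the measures share the list length.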

How the results depend on the processing

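The number of cDC2-only sites moved to 1320 with all deposited summits, to 1326 when no cDC1 summit was allowed within 5 kb and to 976 when none of any deposited rank was allowed within 1 kb, and the genes with such a site to 973, 931 and 723. It was within 1.5 times in the other alternatives, and 2257 with tied scores in the opposite order. Leaving out each cDC2 or cDC1 library in turn gave 2605 to 2922 sites at 1807 to 1986 genes, with 3.86% to 5.07% at gene ends, 51.5% to 52.5% inside and 43.1% to 44.4% outside genes. The gene-end share moved to 3.26% with all deposited summits, 6.26% with lists shortened further, to 50% of their length, 6.03% with no distance required, 3.07% with no cDC1 summit of any rank and 2.43% with a 500 bp window. The inside share moved to 49.0% with these shorter lists and 49.2% at 5 kb, where the outside share was 46.5%.

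In the limma fit of KO and WT, 6 sites were called with scores centred on the library median, 1 with the normal score of the rank, 0 without a variance trend (2934 at an unadjusted p under 0.05) and 1 with the shorter lists. Of cDC2-only sites 0 were called with the normal score, without a trend, with all deposited summits or with the shorter lists (168, 251, 103 and 130 at an unadjusted p under 0.05), and 1 with chaining within 500 bp. Leaving out each cDC2 library gave 0 to 124 sites and 0 to 14 cDC2-only sites, the highest without replicate 1 of KO cDC2, 1 site without replicate 2 of KO cDC2, and 0 without either WT library (2695 and 2154 unadjusted). The lone library of a genotype is then assumed to vary like the others. The median log2 difference of cDC2-only sites turned to 0.008 with median centring and ran from -0.091 to 0.006 with a library left out. With the replicate block 25 sites and 6 cDC2-only sites were called, among them those near Cd300e, Ly9 and Tmem135 (adjusted p = 0.0205, 0.0454 and 0.047, limma). The deviations of same-numbered KO and WT cDC2 libraries from their group means had a correlation of 0.0355 over 40661 sites, so the numbers do not show a pairing. The causes were not tested. Read depth is unknown and limits every statement on a site not found.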

Other observations

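MicroRNA hairpins from RefSeq lay within 3 kb of 6 cDC2-only sites. The nearest was Mir33, in the gene Srebf2, a regulator of cholesterol synthesis, 281 bp from a site with ranks of 45964 and 34492 in KO cDC2 and of 48682 and 50462 in WT cDC2. The site 1230 bp from Mir6347, near Uck2, had ranks of 18579 and 24317 in KO cDC2 and of 21941 and 23613 in WT cDC2. These summits describe position only.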
